A study of Mus musculus with 2 samples.

Results

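Atrial cardiomyocyte nuclei were taken from 2 single-nucleus RNA libraries of mouse cardiac tissue. A nucleus was counted as atrial when its barcode had at least 200 genes, at most 30% mitochondrial UMIs, at least 3 of the 6 genes Myl7, Myl4, Bmp10, Sbk2, Nppa and Sln, and at most 2 UMIs over 9 genes of other heart cells (Pdgfra, Col1a1, Pecam1, Cdh5, Ptprb, Pdgfrb, Csf1r, Ptprc and Msln). A UMI is a molecular tag that counts 1 captured RNA molecule once. The rule found 125 nuclei among 23494 barcodes that passed its limits on genes and mitochondrial UMIs, and among 26334 barcodes in all. Of these nuclei, 47 came from the CF-KI library and 78 from the control library.

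CF-KI denotes mice in which NLRP3 is constitutively active in fibroblasts, with the genotype Tcf21-MerCreMer;Nlrp3-A350V/A350V, and the control carried Tcf21-MerCreMer;Nlrp3-WT/WT. All mice were C57Bl6/J males of 3.5 months that received tamoxifen, which turns on the MerCreMer recombinase in cells that use the Tcf21 promoter, mainly fibroblasts. Per the submitters, the Nlrp3 allele is silenced in cells without Cre, a state that would include cardiomyocytes. The labels name neither the chambers sampled nor the number of animals in a library, and there was 1 library per group. Every difference between the groups is therefore a difference between 2 libraries without a replicate check, no test was made, and all intervals are 95% intervals that cover counting error only.

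Atrial cardiomyocytes contract with their own set of myosin light chains and store atrial natriuretic peptide in granules, which makes them both a muscle and an endocrine cell. Their resting potential is steadied by acetylcholine-gated potassium channels that the vagus nerve opens through the M2 receptor. The transcription factors TBX5, GATA4, NKX2-5 and COUP-TFII help to set and keep atrial identity, while IRX4 and HEY2 hold the ventricular one. Disturbed calcium release and conduction in these cells are known features of atrial fibrillation.

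The bases before the start sites of 3 genes of the rule are shown because these genes mark the nuclei and their promoters are classical targets of cardiac factors. The sequences are from RefSeq on GRCm38.p6 and cover 250 bases before the start on the gene's own strand, 5′ to 3′, at chr4:148000472-148000721 (plus strand) for Nppa, chr11:5898783-5899032 (minus strand) for Myl7 and chr6:87428744-87428993 (plus strand) for Bmp10. Capitals mark motif matches.
Nppa: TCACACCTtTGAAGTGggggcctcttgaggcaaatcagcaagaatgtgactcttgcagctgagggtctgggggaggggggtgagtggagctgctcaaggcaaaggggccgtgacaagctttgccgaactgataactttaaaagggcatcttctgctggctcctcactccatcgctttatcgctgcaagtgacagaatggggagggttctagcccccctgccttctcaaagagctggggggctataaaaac
Myl7: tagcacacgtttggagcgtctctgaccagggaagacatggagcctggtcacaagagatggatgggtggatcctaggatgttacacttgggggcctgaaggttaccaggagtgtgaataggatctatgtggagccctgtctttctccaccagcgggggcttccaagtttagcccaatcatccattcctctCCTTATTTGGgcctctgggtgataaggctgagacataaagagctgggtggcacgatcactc
Bmp10: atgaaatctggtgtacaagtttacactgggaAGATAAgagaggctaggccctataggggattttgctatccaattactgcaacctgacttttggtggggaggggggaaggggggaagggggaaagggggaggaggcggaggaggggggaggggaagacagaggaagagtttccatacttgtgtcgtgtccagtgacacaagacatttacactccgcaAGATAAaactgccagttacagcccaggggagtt

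Motifs were searched on both strands in windows from 250 bases before to 50 bases after a start, and no match overlapped another. A match is a description of the letters and not evidence of binding. Nppa had a match to the TBX5 motif AGGTGTNA beginning 250 bases before the start and a match to the NKX2-5 motif TNAAGTG beginning 241 bases before it. Over 32851 windows, 3.03% held the TBX5 motif and 11.5% the NKX2-5 motif. Myl7 had a CArG box, the motif of serum response factor, 61 bases before the start, a motif found in 1.63% of windows. Bmp10 had the GATA motif AGATAA 219 and 33 bases before the start, and 11.2% of windows held it. The MEF2 motif, in 1.68% of windows, was not matched in the window of any of these genes, and Myl4 and Sbk2 matched none of the motifs named here. Sln had no entry among the sequences.

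The atrial nuclei of the 2 libraries differed in depth and in mitochondrial share. CF-KI nuclei had a median of 1306 UMIs (range 522 to 8525) and 608 genes, and control nuclei a median of 1762 UMIs (703 to 6860) and 762.5 genes. Mitochondrial UMIs made up a median of 15.3% (1.37% to 29.9%) in CF-KI and 1.76% (0.0508% to 29.1%) in the control. Of the atrial nuclei, 5 of 47 in CF-KI and 56 of 78 in the control had no more than 5% mitochondrial UMIs. Over all filtered barcodes the medians were 12.1% and 3.28%. The rule did not ask for 7 general cardiomyocyte genes, which were Ttn, Myh6, Actn2, Ctnna3, Rbm20, Mybpc3 and Ldb3. At least 3 of them were detected in 32 CF-KI (68.1%) and 67 control (85.9%) atrial nuclei. Over all filtered barcodes the same was true of 49.2% in CF-KI and 32.8% in the control. The libraries shared 46 barcode sequences, none of them that of an atrial nucleus.

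**Figure D1:**
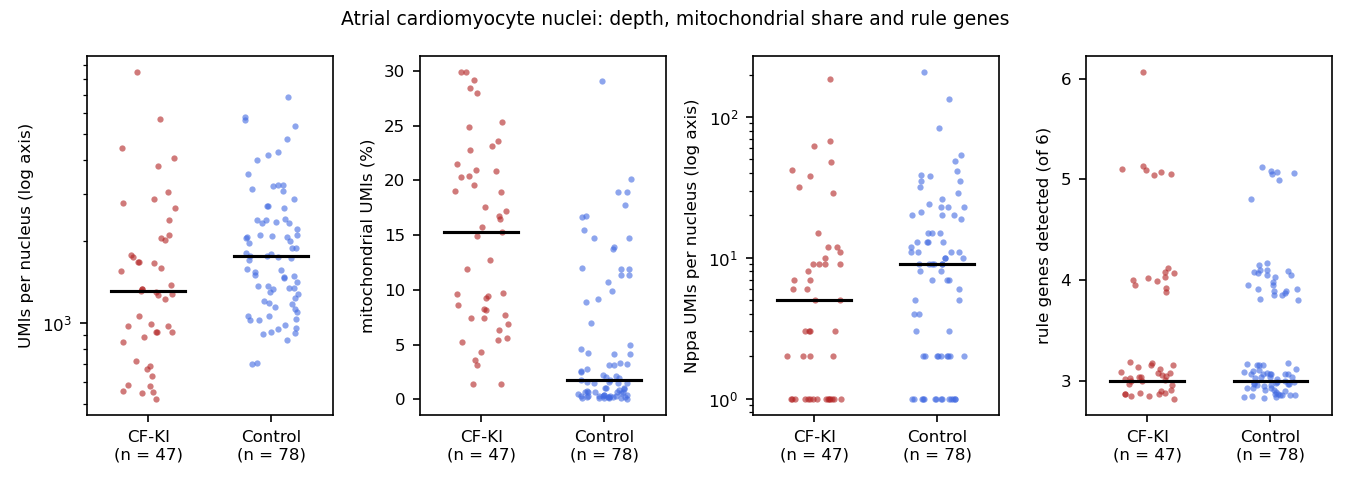
Total UMIs, mitochondrial UMIs, Nppa UMIs and number of rule genes in each atrial nucleus (points, with horizontal jitter, and vertical jitter in the last panel) of CF-KI (47 nuclei) and control (78 nuclei), with medians as black lines; UMIs and Nppa are on log axes. The medians of mitochondrial UMIs are 15.3% and 1.76%, and the median number of rule genes is 3 in both libraries.

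The 6 genes that chose the nuclei are given as a description, since the rule used them. Levels are given as CPM, the UMIs of a gene summed over nuclei and scaled to 1000000 non-mitochondrial UMIs of the same nuclei. Nppa, the precursor of atrial natriuretic peptide, was detected in every one of the 125 nuclei, so that the rule acted as Nppa plus at least 2 of the other 5 genes. It had 1 to 186 UMIs per nucleus in CF-KI (median 5) and 1 to 209 in the control (median 9), and 15 CF-KI and 14 control nuclei had exactly 1 Nppa UMI. The atrial essential light chain Myl4 was detected in 85.1% of CF-KI and 82.1% of control nuclei. Sarcolipin (Sln), a small inhibitor of the SERCA calcium pump, was detected in 78.7% and 59.0%. The atrial regulatory light chain Myl7 was detected in 57.4% and 59.0%. Bmp10, a secreted growth factor of the atrium, was detected in 27.7% and 30.8%, and the kinase gene Sbk2 in 4.26% (2 nuclei) and 15.4% (12 nuclei).

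Nppa summed to 9494 CPM over CF-KI atrial nuclei and to 8598 CPM over control ones. Myl4 stood at 2601 and 2172 CPM, Myl7 at 1482 and 1154 CPM, Sln at 1105 and 902 CPM, Bmp10 at 364 and 245 CPM, and Sbk2 at 28.0 and 83.8 CPM. The order of the levels was the same in both libraries, but levels of different genes are not corrected for priming or length. Ventricular comparison nuclei were those that passed the same limits, had at least 3 of the 7 general cardiomyocyte genes and at most 1 of the 6 atrial genes; there were 4814 in CF-KI and 2818 in the control. Nppa stood at 179 and 144 CPM there, Myl4 at 32.1 and 16.8 CPM, and Bmp10 at 1.21 and 1.39 CPM. The minimum of 3 general genes was no sure mark of a cardiomyocyte. It was also met by 43.6% (CF-KI) and 18.8% (control) of barcodes with over 2 UMIs of the 9 genes of other heart cells. Erythroid genes of the comparison nuclei stood at 8904 (CF-KI) and 1214 CPM (control), and fibroblast genes at 4646 and 2471 CPM. For the stricter comparison nuclei, defined below, these were 1271 and 304 CPM, and 2721 and 1145 CPM. The share of other cells among comparison nuclei was not tested.

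Nppa UMIs were also found outside atrial nuclei; whether they were free RNA, doublets or expression was not tested. At least 1 Nppa UMI was found in 18.1% of CF-KI (median depth 1275 UMIs) and 19.5% of control (2045 UMIs) ventricular comparison nuclei. In barcodes with over 2 UMIs of the 9 genes of other heart cells, which should lack it, the shares were 20.1% (median depth 1520 UMIs) and 20.9% (1386 UMIs). Of these barcodes, 8 of 2739 in CF-KI (0.292%) and 18 of 3077 in the control (0.585%) had at least 3 of the 6 genes. None of them could meet the complete rule, because they had over 2 UMIs of the 9 genes. The corresponding shares among barcodes with at most 2 such UMIs were 0.477% (47 of 9859) and 0.998% (78 of 7819).

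Atrial genes that the rule did not use went with the number of rule genes detected. A list of 22 other atrial genes, among them Kcnj3, Pam, Tbx5, Dkk3 and Mybphl, was summed over nuclei grouped by that number. Nuclei with fewer than 3 rule genes were required to have at least 3 general cardiomyocyte genes. In CF-KI the sum was 529 CPM (509 to 550) with no rule gene, 560 CPM with 1, 657 CPM (555 to 772) with 2, 1456 CPM (1135 to 1839) with 3 and 4951 CPM (4091 to 5938) with 4 to 6. In the control it was 406 CPM (388 to 425), 444 CPM, 948 CPM (831 to 1077), 1966 CPM (1704 to 2256) and 5250 CPM (4648 to 5908). Nuclei with exactly 3 rule genes, 30 of 47 in CF-KI and 49 of 78 in the control, carried a lower summed level of these genes than nuclei with 4 to 6. Kcnj3, which encodes a subunit of the acetylcholine-gated potassium channel, stood at 35.8 and 104 CPM just outside the threshold, at 2 genes, and at 229 and 195 CPM just inside it, at 3 genes. Median UMIs at 2, 3 and 4 genes were 1311.5, 1292.5 and 1411.5 in CF-KI and 1689.5, 1730 and 1762 in the control.

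**Figure D2:**
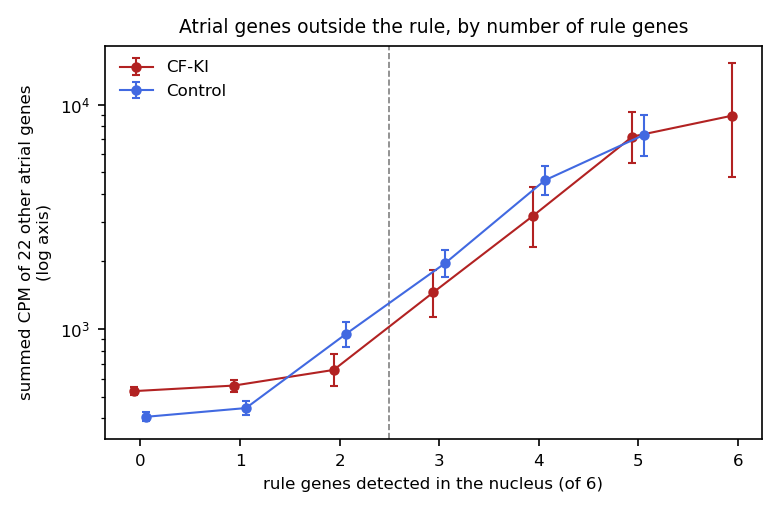
Summed CPM of 22 atrial genes outside the rule (log axis, with exact Poisson 95% intervals for counting error) against the number of rule genes detected in a nucleus, for CF-KI (red) and control (blue); the dashed line is the threshold of the rule. The level was 1456 and 1966 CPM at 3 genes against 657 and 948 CPM at 2 genes.

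Atrial nuclei made up a smaller share of the CF-KI library. They were 0.373% (0.274% to 0.496%) of 12598 filtered barcodes in CF-KI and 0.716% (0.566% to 0.893%) of 10896 in the control, a difference of -0.343 percentage points (-0.545 to -0.149). Among atrial plus ventricular comparison nuclei the shares were 0.967% and 2.69%, a difference of -1.73 points (-2.43 to -1.08). A stricter comparison, chosen after seeing the data, asked that the 7 general cardiomyocyte genes make up at least 2% of non-mitochondrial UMIs, which 1711 of 4814 CF-KI and 1629 of 2818 control comparison nuclei met. Against these the shares were 2.67% of 1758 and 4.57% of 1707 nuclei, a difference of -1.90 points (-3.20 to -0.617). After each barcode was thinned to 500 UMIs only 18 CF-KI and 24 control nuclei met the rule, and the difference was -0.0774 points (-0.199 to 0.0371), an interval that includes 0. With at least 4 rule genes, 17 and 29 nuclei remained and the difference was -0.131 points (-0.260 to -0.0117). Fewer atrial cells, less atrial tissue in the sample and less atrial RNA per nucleus cannot be told apart in these data.

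The label was checked against atrial genes outside the rule by comparing atrial with ventricular nuclei of the same library. Of the 22 other atrial genes, 19 had a higher CPM in atrial nuclei of both libraries and none a lower one in both; over all 20033 features with a UMI, 17.1% were higher in both. For 14 of the 22 the counting interval of the log2 ratio lay above 0 in both libraries, against 0.719% of all features. The remaining 3 genes had no UMI in CF-KI atrial nuclei; among them, Gja5 had 5 UMIs and Hamp 1 in control ones. The list was drawn up with earlier results of these data known. As most features had few UMIs, the shares over all 20033 features are no like comparison for it or for the chamber lists below.

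Among genes of the atrial contractile apparatus, Mybphl, a myosin-binding protein of the atrium, had 12 UMIs in 9 nuclei of each library, which is 168 CPM in CF-KI and 77.3 CPM in control atrial nuclei against 1.51 and 1.54 CPM in ventricular ones. Its log2 atrial to ventricular ratio was 6.80 (5.46 to 8.17) in CF-KI and 5.65 (4.31 to 7.02) in the control. Myl1, an alkali light chain best known from skeletal muscle, had ratios of 2.74 (1.49 to 3.77) and 3.82 (3.10 to 4.49). Sbk3, which lies beside Sbk2 on chromosome 7 and encodes a related kinase, had 6 and 18 UMIs and ratios of 5.42 (3.74 to 6.92) and 6.75 (5.42 to 8.25). Each of these genes was scarce in ventricular nuclei, at no more than 16.7 CPM, and was detected in a minority of atrial ones.

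The channel genes of the list included both channel subunits and the receptor of the vagal pathway. Kcnj3 had 17 UMIs in 10 of 47 CF-KI nuclei and 39 UMIs in 25 of 78 control nuclei, or 238 and 251 CPM, with ratios of 2.80 (1.99 to 3.51) and 2.93 (2.40 to 3.43). Its partner subunit Kcnj5 had 5 UMIs in each library and ratios of 2.48 (0.82 to 3.76) and 1.78 (0.10 to 3.08). Chrm2, the M2 muscarinic receptor upstream of these subunits, had 12 and 26 UMIs, 168 CPM in both libraries, and ratios of 1.47 (0.50 to 2.29) and 1.59 (0.95 to 2.16). Rgs6, which shortens signalling by the G protein of that receptor, was higher by 1.45 and 1.52. The acid-sensitive background potassium channel gene Kcnk3 was higher by 1.35 (0.13 to 2.35) and 1.60 (0.86 to 2.25), but its CF-KI interval against the stricter comparison nuclei included 0 (-0.16 to 2.10). Cacna2d2, an auxiliary calcium channel subunit, was higher by 5.21 and 4.67, while its relative Cacna2d1 was lower by 1.36 (interval -3.64 to 0.19) and 1.66 (-2.98 to -0.62), so that the 2 auxiliary subunits had opposite chamber patterns. Fgf12, which binds sodium channels, was higher by 6.31 and 6.16. Kcna5, which carries the ultrarapid potassium current, had 1 UMI in atrial nuclei of each library and was more abundant in non-myocyte barcodes (62.0 and 42.6 CPM).

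Transcription factors and secretory genes followed. Tbx5 stood at 97.9 CPM (7 UMIs) in CF-KI and 148 CPM (23 UMIs) in control atrial nuclei, with ratios of 2.17 (0.83 to 3.25) and 2.60 (1.91 to 3.24). Nr2f2, which encodes COUP-TFII, was higher by 2.29 (1.44 to 3.04) in the control, with 16 UMIs, and by 0.47 (-1.41 to 1.85) in CF-KI, with 4 UMIs, and against the stricter comparison nuclei by 3.85 and 1.35, respectively. Pam, the amidating enzyme that is the main membrane protein of atrial granules, was the most abundant of the list, at 825 CPM (59 UMIs) and 973 CPM (151 UMIs), and its ratios were 2.39 (1.98 to 2.77) and 3.09 (2.82 to 3.34). Dkk3, a secreted protein of the dickkopf family, was higher by 4.05 and 4.97, Clu (clusterin) by 1.37 and 2.24, and the lipid transfer gene Stard10 by 4.21 and 5.66. Nppb, which encodes the B-type natriuretic peptide and lies next to Nppa, had 11 and 17 UMIs and ratios of 0.26 (-0.75 to 1.11) and 0.73 (-0.07 to 1.42), both including 0. Corin, the protease that activates the Nppa product, had ratios of 0.47 and 0.48 with intervals that include 0.

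Ventricular genes were more often lower than higher in atrial nuclei. Of 13 genes, 8 had a lower CPM in atrial nuclei of both libraries, counting those with no atrial UMI, against 36.4% of all features, and none was higher in both. Over the 6 measured genes the median ratios of the libraries were -0.08 (CF-KI) and -0.69 (control). The interval lay below 0 in both for 1 of the 13, against 0.18% of all features. That gene was Pln, phospholamban, with ratios of -0.40 (-0.63 to -0.18) and -0.75 (-0.94 to -0.57). The ventricular transcription factor genes Irx4 and Hey2 had no UMI in atrial nuclei of either library, but 3 UMIs would be 41.9 CPM for CF-KI and 19.3 CPM for control nuclei, above or near their ventricular levels of 9.19 to 19.6 CPM. The ventricular light chain gene Myl2, in contrast, was found in 43 of 47 CF-KI and 48 of 78 control atrial nuclei. It stood at 2825 CPM in CF-KI atrial nuclei against 2985 CPM in ventricular ones, and at 1341 against 760 CPM in the control, ratios of -0.08 (-0.29 to 0.12) and 0.82 (0.61 to 1.02). Myl3 behaved the same way, with -0.05 and 0.77. Non-myocyte barcodes held 2216 and 614 CPM of Myl2. An index of free RNA was taken from 72 and 77 markers of other cell types. It is their median level relative to all filtered barcodes, not to empty droplets, so it is no measured share of free RNA. The index was 50.5% in CF-KI and 32.3% in control atrial nuclei, and 54.0% and 24.5% in ventricular ones. The part of free RNA in the Myl2 and Myl3 levels was not tested. Values with free RNA subtracted, given below, rest on this index.

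**Figure D3:**
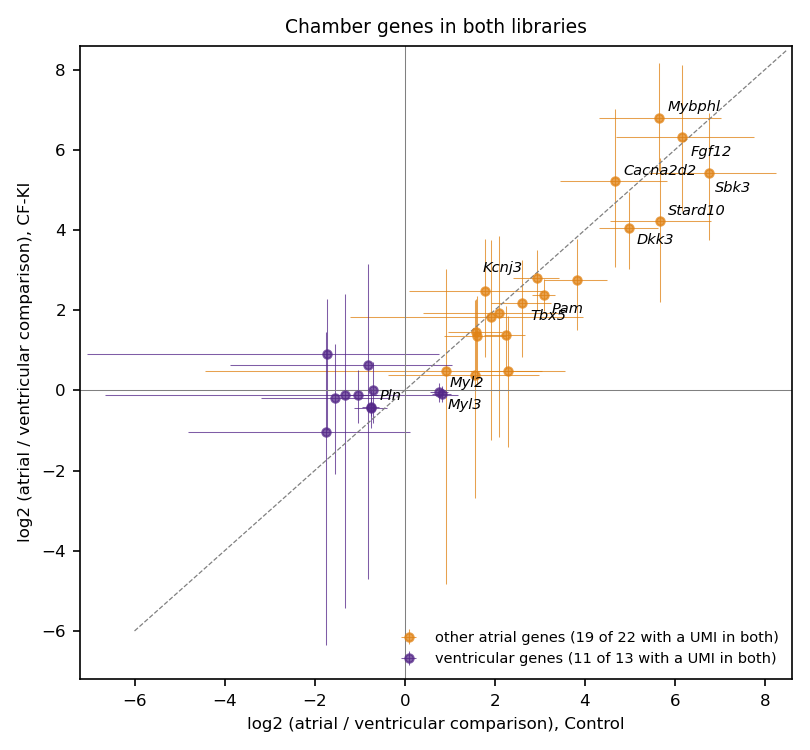
Log2 ratio of atrial to ventricular comparison nuclei in the control (x axis) and in CF-KI (y axis) for atrial genes outside the rule (orange) and ventricular genes (purple) with a UMI in both libraries; bars are 95% intervals for counting error. Mybphl, Fgf12 and Sbk3 lie at 5.42 to 6.80 in both libraries, whereas Myl2 and Myl3 lie near 0 in CF-KI and at 0.82 and 0.77 in the control.

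Markers of the sinus node, the pacemaker region of the right atrium, were sparse, with 25 and 42 UMIs summed over 11 genes, of which 9 had a UMI in atrial nuclei. In both libraries 4 were higher than in ventricular nuclei, against 17.1% of all features, and the interval lay above 0 in both for 3 of them, Rgs6 and Cpne5 included, against 0.719%. Against the stricter comparison nuclei the interval of Rgs6 in CF-KI included 0 (-0.08 to 2.18). Cpne5 had 6 and 10 UMIs with ratios of 6.54 and 4.25. Of the defining genes, Isl1 had no UMI in atrial nuclei, Shox2 had 1 in the control and none in CF-KI, Tbx3 had 1 in CF-KI and none in the control, and Hcn4 had 1 in the control.

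Among genes used by both kinds of muscle, calcium handling and channel genes went both ways, while sarcomere genes were more often higher. Among 25 calcium handling genes 11 were higher and 8 lower in both libraries, where all features gave 17.1% and 36.4%. The interval was above 0 in both for Atp2a2, the SERCA pump, at 4293 and 4015 CPM with ratios of 0.43 (0.26 to 0.59) and 0.55 (0.44 to 0.67), and below 0 in both for its inhibitor Pln and for the channel subunit Cacnb2 (-0.78 and -0.59). Against the stricter comparison nuclei the CF-KI ratio of Atp2a2 was 0.11 (-0.06 to 0.27). The ryanodine receptor gene Ryr2 was at 2587 and 2520 CPM, higher than in ventricular nuclei by 0.72 (0.50 to 0.93) in CF-KI and by 0.06 (-0.08 to 0.21) in the control. Against the stricter comparison nuclei Ryr2 was at 0.22 (0.00 to 0.43) and -0.20 (-0.34 to -0.05). Of 15 sarcomere genes not used to choose nuclei, 10 were higher and 1 lower in both, with Tnni3 (0.54 and 1.17), Tpm1 (0.39 and 1.31), Actc1 (0.28 and 1.57) and Nebl (0.74 and 0.46) above 0 in both and troponin C (Tnnc1) at -0.67 and -0.37. Against the stricter comparison nuclei the CF-KI intervals of Tpm1 (0.12), Actc1 (0.08) and Nebl (0.27) included 0, as did the control interval of Nebl (0.21). Of 25 potassium and sodium channel genes 10 were higher and 7 lower in both, where all features gave 17.1% and 36.4%. Besides Kcnj3, Kcnj5 and Kcnk3, the sulphonylurea receptor gene Abcc8 was higher, at 2.33 (1.18 to 3.29) and 2.20 (1.47 to 2.85), and its relative Abcc9 was lower, at -1.05 and -1.04 with upper bounds of 0.18 and 0.01. Scn10a, with 2 and 3 UMIs, was higher by 3.37 and 3.80.

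Nuclear-encoded subunits of the respiratory chain were higher in atrial nuclei of both libraries for 27 of 30 genes, against 17.1% of all features, with a median over 29 measured members of 0.33 in CF-KI and 1.70 in the control. For 7 of them the interval lay above 0 in both, against 0.719% of all features, among them Ndufa4 (0.54 and 1.74) and Cox4i1 (0.42 and 1.70). As 29 of the 30 genes were measured and most features had far fewer UMIs, these shares are no like comparison. The subunit RNAs are spliced, abundant and mostly cytoplasmic. The median mitochondrial share moved the same way, at 15.3% in atrial against 7.94% in ventricular CF-KI nuclei and 1.76% against 0.544% in the control, and its part in the difference was not tested. Of 10 long noncoding RNAs 4 were lower and 2 higher in both libraries, against 36.4% and 17.1% of all features. Intervals lay below 0 in both for Malat1 (-0.27 and -0.35) and Neat1 (-0.64 and -0.83) and above 0 in both for Gm42418 (0.23 and 1.10).

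Over all features the chamber comparison was limited to the 1016 with at least 100 UMIs in all and at least 30 observed or expected in atrial nuclei, the latter minimum being added after seeing the data. Of these, 39 (3.84%) were at least 2-fold higher in both libraries and 6 (0.591%) at least 2-fold lower, 45 (4.43%) in all, and 32.3% lay in opposite directions in the 2 libraries. Without that minimum the shares of 9583 features were 5.56% higher, 1.33% lower and 6.89% in all. Plekha7, an adherens junction protein, was the highest by the smaller of its ratios, at 4.61 (3.44 to 5.64) and 4.15 (3.32 to 4.93), with 10 and 20 UMIs. Dkk3 came next, then Tbc1d1, which regulates glucose transporter traffic, with 3.48 and 3.69, and Podn, a small proteoglycan of the matrix, with 2.91 and 4.08. Without the minimum in atrial nuclei, the 10 highest also held 4 genes with few UMIs: the sorting receptor gene Sort1 (5 and 8 UMIs; 3.02 and 3.48), Rp1 (2.73 and 2.89), β-tropomyosin (Tpm2, 2.55 and 3.69) and the anaphase-promoting complex subunit Anapc15 (3 and 8 UMIs; 2.42 and 2.55). Lipid synthesis genes Fasn (3.14 and 2.29) and Scd1 (2.23 and 2.68), chosen for mention after their values were seen, were among the 39, as was Arhgap31, a GTPase-activating protein, at 2.31 and 4.02. The ratios of Fasn and Scd1 are with 0.5 UMIs added. The rule excluded no adipocyte gene. Summed adipocyte markers were at 112 CPM (8 UMIs) in CF-KI and 129 CPM (20 UMIs) in control atrial nuclei. In ventricular nuclei they were at 45.8 and 30.5 CPM. The atrial UMIs came from 3 nuclei in each library, and their part in the Fasn and Scd1 ratios was not tested.

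At the other end was Cavin4, a muscle protein of caveolae, at -2.20 (-4.48 to -0.65) and -2.83 (-4.45 to -1.60), with 3 and 5 UMIs against 192 and 229 CPM in ventricular nuclei. The histone methyltransferase gene Kmt5a was at -1.93 and -1.83, Trim7 at -2.88 and -1.55, Gpcpd1 at -1.66 and -1.27 and the titin-binding stress protein gene Ankrd23 at -1.70 and -1.17. Mapt was the sixth gene lower by 2-fold in both. Without the minimum in atrial nuclei, the 10 lowest also held Galm (-1.90 and -1.86), Cacna2d1, given above, Hand2, Lbh and Dpep1. Hand2, a transcription factor of the developing ventricle, was at -1.22 (-2.54 to -0.18) and -1.61 (-3.49 to -0.24). Lbh and Dpep1 were lower in both libraries with an interval that included 0 in 1 of them.

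CF-KI was then compared with the control within atrial nuclei, since the title of the study names atrial fibrillation. Their non-mitochondrial UMIs summed to 71517 for CF-KI and 155155 for the control, so that 937 features reached 30 UMIs in both libraries together. Of these, 59 (6.3%) were at least 2-fold higher in CF-KI and 43 (4.59%) at least 2-fold lower, 102 (10.9%) in all, with a median log2 ratio of 0.09. In ventricular comparison nuclei 1979 of 12804 features (15.5%) were at least 2-fold higher and 220 (1.72%) lower, 17.2% in all, with a median of 0.28. Scaling by TMM or by size factors would shift every atrial log2 ratio by -0.12, which puts the medians of all features (0.09), calcium handling genes (0.04) and sarcomere genes (0.10) below 0. A turn of direction was called only for named genes whose interval excluded 0. In nuclei with at most 5% mitochondrial UMIs (5 and 56) the direction turned for Ankrd1, Cpt1b, Ldb3, Adcy6, Tmsb4x, Gsn, Dst and Pde4dip. It also turned for the rule genes Myl7 and Nppa, and Hspb1 and Uqcrfs1 had no CF-KI UMI there. Thinning to 500 UMIs chose 18 and 24 nuclei, whose UMIs were then all counted. In these nuclei the direction turned for Pln, Ttn, Mgp, Gsn, Arhgap31, Pde4dip, Gm42418 and the rule gene Myl7, and Myh7 had no CF-KI UMI. In nuclei with at least 4 rule genes 223 features reached 30 UMIs, of which 11 were at least 2-fold higher and 12 lower.

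Among 22 atrial identity genes outside the rule, 7 reached 30 UMIs, of which 6 had a lower CPM in CF-KI and 1 a higher one, none by 2-fold, and the median was -0.43 against 0.09 over all features and 0.37 for the same genes in ventricular nuclei. No interval of the 7 excluded 0. Chrm2 (0.00, interval -1.12 to 1.04) and Kcnj3 (-0.08) were nearly level, and Tbx5 (-0.60, -2.06 to 0.67), Myl1 (-0.53) and Clu (-0.50) were the lowest. Summed over the 22 genes, CF-KI atrial nuclei held 2601 CPM and control ones 3074 CPM, a log2 ratio of -0.24 (-0.49 to 0.01). Pam was at -0.24 (-0.70 to 0.20) in atrial nuclei and at 0.46 in ventricular ones, a difference of -0.70 (-1.18 to -0.23). As a description only, Nppa was higher in CF-KI by 0.14 (0.01 to 0.28) and, in the 17 and 29 nuclei that the other 5 genes choose, by 0.37 (0.22 to 0.53), while in ventricular nuclei it was higher by 0.31; it was at -0.0025 when all UMIs were the denominator and at -0.83 in nuclei with at most 5% mitochondrial UMIs.

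All 6 measured ventricular genes were higher in CF-KI atrial nuclei, 2 of them by 2-fold, against 6.3% of all features, with a median of 0.66 against 0.34 in ventricular nuclei. Myl2 was higher by 1.08 (0.79 to 1.36) in atrial and by 1.97 in ventricular nuclei, and Myl3 by 0.70 and 1.52. Myh7, the slow myosin heavy chain, had 16 UMIs in each library and was higher by 1.12 (0.02 to 2.21), but at -0.42 in nuclei with at least 4 rule genes. Pln was higher by 0.62 (0.33 to 0.91) and by 0.27 in ventricular nuclei. The index of free RNA was also higher in CF-KI, 50.5% against 32.3%, and the part of free RNA in these values was not tested.

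Stress genes had the highest median of the lists, 0.94 over 9 measured genes of 18, with 7 higher and 2 lower in CF-KI and 3 at least 2-fold higher, against 6.3% of all features; the median in ventricular nuclei was 0.55. Metallothionein Mt1 had 25 UMIs (350 CPM) in CF-KI against 15 (96.7 CPM) in the control, a ratio of 1.85 (0.87 to 2.88). The small heat shock protein gene Hspb1 was higher by 1.61 (0.66 to 2.60), with 24 and 17 UMIs. Ankrd1, a cardiac ankyrin repeat protein induced by stretch, stood at 853 and 438 CPM and was higher by 0.96 (0.44 to 1.48), against 0.32 in ventricular nuclei, a difference of 0.64 (0.11 to 1.17). At most 5% mitochondrial UMIs left 5 CF-KI nuclei, in which Ankrd1 was at -0.69 with 2 and 30 UMIs and Hspb1 had no UMI, against 7 in the control. The chaperone gene Cryab was at 0.18 in atrial and 1.57 in ventricular nuclei, a difference of -1.40 (-1.87 to -0.94). Desmin (Des, -0.28) and the matricellular gene Ccn2 (-0.30) were the lowest of the list.

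Respiratory chain genes had higher CPM in CF-KI, by less than in ventricular nuclei. Of 29 measured respiratory chain genes 27 were higher and 2 lower in CF-KI, none by 2-fold, with a median of 0.38 in atrial against 1.79 in ventricular nuclei. Ndufa4, at 1007 and 509 CPM, was the highest, with 0.98 in atrial and 2.18 in ventricular nuclei, and Atp5g1, at 0.02 and 2.02, differed by -1.99 between the 2 kinds of nuclei. Summed over the list, control atrial nuclei held 12936 CPM and control ventricular nuclei 4323 CPM. Among 11 measured genes of fatty acid use 8 were higher and 3 lower, with a median of 0.35 in atrial and 0.87 in ventricular nuclei. Ech1, an enzyme of β-oxidation, was higher by 1.48 and Acadvl, the very-long-chain acyl-CoA dehydrogenase, by 1.17, close to their ventricular ratios of 1.58 and 1.10, whereas Cpt1b, the gate of fatty acid entry into mitochondria, was lower, at -1.20 (-2.51 to -0.09) with 8 and 40 UMIs. Cpt1b was at -0.97 in ventricular nuclei. Ppargc1a, a coactivator of mitochondrial genes, was at -0.56 with 31 and 99 UMIs.

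Calcium handling genes were spread around 0, with 8 higher and 7 lower in CF-KI among 15 measured and a median of 0.04. Pln was higher by 0.62, as given above. The histidine-rich calcium-binding protein gene Hrc was at -0.64 (-1.66 to 0.28) in atrial and 0.36 in ventricular nuclei, and the inositol trisphosphate receptor gene Itpr1 at -1.20 (-2.95 to 0.21) with 5 and 25 UMIs. Ryr2 was nearly level, at 2587 and 2520 CPM. Intercalated disc genes were higher for 7 of 8, none by 2-fold, with a median of 0.31; N-cadherin (Cdh2, 0.68) and Xirp2 (0.65) were the highest, each with an interval that includes 0. Connexin 43 (Gja1) was at 0.22 (-0.35 to 0.78) with 42 and 78 UMIs.

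Genes at human fibrillation loci were lower in CF-KI for 7 of 9 measured of 32, with a median of -0.16, against -0.17 in ventricular nuclei. In the stricter comparison nuclei this median was -0.10. There the medians of lists given above were 0.35 for atrial identity, 0.55 for ventricular, 0.57 for stress, 1.85 for respiratory chain and 0.91 for fatty acid genes. Ttn, the titin gene, was the deepest, with 1334 and 3098 UMIs, and was at -0.10 (-0.19 to -0.01) in atrial nuclei. It was at -0.77 in ventricular nuclei and at -0.47 in the stricter comparison nuclei, both chosen partly by Ttn. The direction in atrial nuclei was the opposite with at least 4 rule genes or without Nppa (0.29) and with no exclusion UMIs (0.20). It was also the opposite with free RNA subtracted (0.25) and in nuclei chosen after thinning (0.90). Gja5, a connexin gene of the atrium, had no UMI in CF-KI and 5 in the control. Sarcomere genes were even, with 9 higher and 9 lower: Tnni3 was higher by 0.66 and Ldb3 was at -0.96 (-1.79 to -0.21). Among 6 adrenergic and muscarinic genes the median was -0.23; Gnas, the stimulatory G protein subunit, was at -0.68 in atrial and 1.18 in ventricular nuclei, a difference of -1.86, and the adenylyl cyclase gene Adcy6 was at -1.07. The 6 measured long noncoding RNAs had a median of -0.01. The channel and secretory lists had 2 measured genes each.

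**Figure D4:**
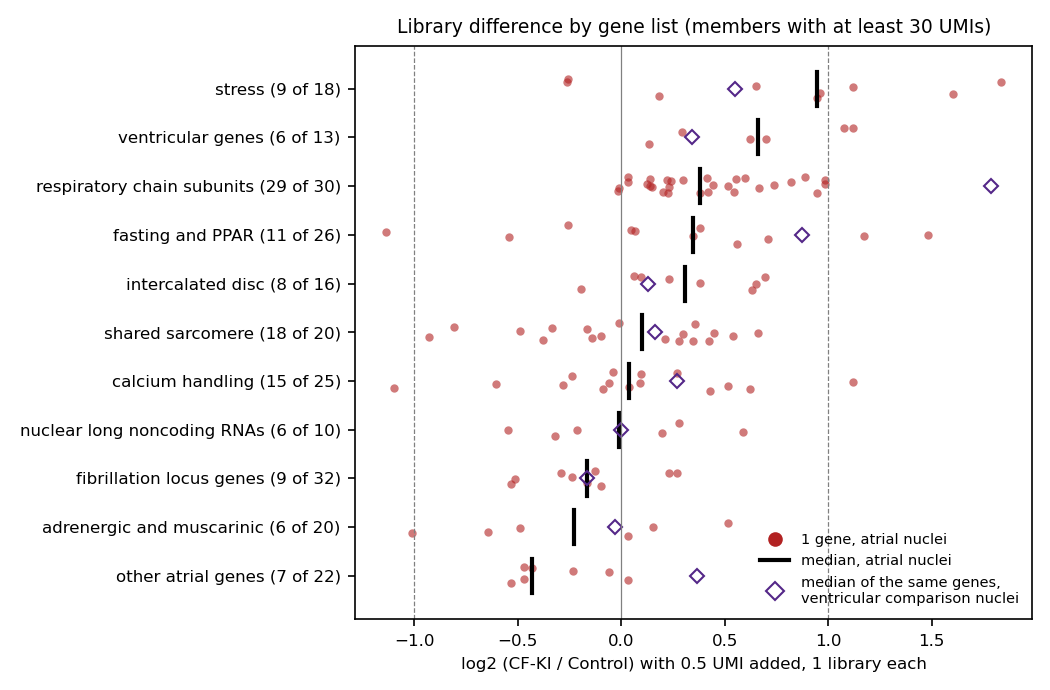
Log2 ratio of CF-KI over control in atrial nuclei (red points, 1 per gene with at least 30 UMIs, 0.5 UMIs added) by gene list, with the list's median (black bar) and the median of the same genes in ventricular comparison nuclei (open diamonds); dashed lines mark 2-fold. The atrial median is highest for the stress list (0.94) and lowest for the other atrial genes (-0.43), and respiratory chain genes lie at 0.38 in atrial and 1.79 in ventricular nuclei.

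Nlrp3 itself had 1 UMI in CF-KI and none in control atrial nuclei, and Tcf21, the gene whose promoter drives the recombinase, had 2 and none; 3 UMIs would be 41.9 and 19.3 CPM. These counts do not show which Nlrp3 allele was transcribed. Of 23 inflammasome and interleukin genes, 20 had a UMI and only Txnip, a redox protein that can bind NLRP3, was measured, at -1.02 (-2.01 to -0.13) with 13 and 57 UMIs, and at -0.78 in ventricular nuclei. The 18 immediate early genes summed to 73 and 83 UMIs, higher in CF-KI by 0.93 (0.46 to 1.40), though no member reached 30 UMIs. The 19 circadian genes summed to 34 and 119 UMIs, with a log2 ratio of -0.69 (-1.28 to -0.13). Clock, with 4 and 26 UMIs, was the only one of them measured, at -1.58. The labels give no time of day.

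Among all features with at least 100 UMIs, several of those highest in CF-KI were genes of other cells. Fabp4, a fatty acid binding protein of capillary endothelium, was higher by 2.29 (1.78 to 2.82), with 106 and 47 UMIs, and by 2.21 in ventricular nuclei. Decorin (Dcn), Mgp and gelsolin (Gsn), typical of fibroblasts, were higher by 1.27, 1.16 and 1.09, and Tmsb4x, which encodes thymosin β4, by 1.09. Myl2, Ndufa4, Ankrd1 and Uqcrh (0.89), described above, and cystatin C (Cst3, 0.98) completed the 10. Summed fibroblast markers in atrial nuclei were at 4810 CPM (CF-KI) and 2166 CPM (control), with 10 and 9 of 10 genes detected and Tcf21 at 0 in the control. Per nucleus they ranged from 0 to 60 UMIs (median 5) in CF-KI and from 0 to 33 (median 2) in the control, and over all filtered barcodes they were at 8349 and 13305 CPM. Endothelial markers were at 2475 and 638 CPM, all 10 detected in both, with 0 to 20 and 0 to 8 UMIs per nucleus, and the part of these RNAs in the gene ratios was not tested. Macrophage genes were at 727 and 683 CPM and haemoglobin and other erythroid genes at 1622 and 1457 CPM. Airway genes such as Scgb1a1 had no UMI in CF-KI atrial nuclei and stood at 509 CPM in control ones.

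At the other end of these features Phkg1, a subunit of phosphorylase kinase, was lowest at -1.27 (-2.02 to -0.59), with 21 and 110 UMIs, and at -0.50 in ventricular nuclei. The splicing factor gene Rbm25 was at -0.82, the ubiquitin ligase gene Rnf207 at -0.66 and dystonin (Dst) at -0.65. Arhgap31 was at -0.69 (-1.33 to -0.09), with 30 and 105 UMIs, but at 1.02 in ventricular nuclei, a difference of -1.71 (-2.39 to -1.08). Its level was 419 and 677 CPM in atrial nuclei, 84.7 and 41.7 CPM in ventricular ones and 335 and 293 CPM in non-myocyte barcodes. In the stricter comparison nuclei it was 40.4 and 25.6 CPM. Pde7a, Pde4dip, Ppip5k2 and Ppargc1a were also among the 10 lowest, of which Phkg1 alone was lower by 2-fold.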

How the data were processed

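Nuclear RNA was profiled with 10x Chromium Single Cell 3′ v3 chemistry, per the labels' protocols. The authors deposited a matrix of UMI counts per gene and barcode for each library, made with Cell Ranger 6.1.1 on mm10 per the submitters' processing notes; whether intronic reads were counted is not given in the sources used here. The members and gene lists were chosen with earlier results of these data known.

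Counts were summed over the nuclei of a library (Python 3.11.15, numpy 2.4.6, scipy 1.17.1, pandas 2.3.3) and scaled to CPM of non-mitochondrial UMIs. Intervals are exact Poisson for levels, Clopper-Pearson for shares, conditional exact binomial for log2 ratios and square-and-add for differences, at 95%. UMI counts limit the precision through counting error only. With 1 library per group, a feature counted as different at 2-fold, from counts with 0.5 added, which lists' medians also use; ratios of single genes have nothing added unless said. Genes were named by rule: the 6 rule genes, Nlrp3 and Tcf21, the 3 highest and 3 lowest of each list with at least 30 UMIs, the 10 highest and 10 lowest features with at least 100 UMIs, and the 10 highest and 10 lowest of the chamber comparison by the smaller of the 2 ratios; members of lists named beside their counts were chosen after their values were seen. Some genes that the rule names are not reported here. Scrublet, run through scanpy 1.11.5, marked 1 of 12598 CF-KI barcodes, so it did not work there, and 328 of 10896 control barcodes, 5 of them atrial; doublets were therefore kept. For thinning no filtered barcode was left out, as all had at least 500 UMIs. Thinning served only to choose nuclei, and gene values under it come from all UMIs of the nuclei chosen. The self-test on simulated counts is not quoted. TMM (edgeR 4.0.16) and size factors (DESeq2 1.42.0) in R 4.3.3 were used for scaling only.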

Additional observations from a re-analysis of the deposited data

Results flagged for a closer look

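Arhgap31 had a log2 ratio of CF-KI over control of -0.69 in atrial nuclei and of 1.02 in ventricular comparison nuclei, so the libraries differed in opposite directions in the 2 kinds of nuclei. The difference was not tested, because each group has 1 library. In the nuclei that met the rule after thinning to 500 UMIs, with all their UMIs counted, the atrial ratio was 0.01 (5 and 9 UMIs).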

How the results depend on the processing

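Of 29 main results, 273 alternative values held, 60 moved and 5 reversed, and of 84 single genes, 824 held, 150 moved and 26 reversed. The settings with at least 4 rule genes and without Nppa chose the same 17 and 29 nuclei, because every atrial nucleus had Nppa. Both settings enter these counts, although one repeats the other. A value held when it lay inside the main counting interval, often a wide one, or for counts within a fixed fold. It reversed only where the main interval excluded 0 and the sign changed, and otherwise it moved. Myl4 and Sln thus counted as moved in settings where their sign changed. The difference in the share of atrial nuclei, -0.343 points, was -0.598 with at most 5% mitochondrial UMIs, -0.131 with at least 4 rule genes or the rule without Nppa, and -0.0774 after thinning. Among cardiomyocyte nuclei it was -0.667, -0.667 and -0.786 under the last 3. A limit of 2 UMIs of other-type markers left 1 and 2 nuclei, under the minimum of 5 per library, so it gave shares only (-0.0104 and -0.0502). The count at least 2-fold higher in CF-KI, 59 of 937 features tested, was 37 of 829 with at least 500 genes. It was 11 of 223 with at least 4 rule genes or without Nppa, 5 of 134 in nuclei chosen after thinning and 134 of 937 with free RNA subtracted. With a minimum of 10 and 100 UMIs it was 481 of 3503 and 6 of 133. The lower count, 43, was 12, 12, 9, 155, 306 and 1 of the same features under the last 6 of these.

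With at most 5% mitochondrial UMIs, which left 5 CF-KI nuclei, log2 values were 1.37 for the ventricular list, 0.31 for the long noncoding RNAs, -1.34 for Myl7, -1.49 for Myl4, -0.83 for Nppa, 0.81 for Sln, -0.69 for Ankrd1, 0.15 for Cpt1b and Pde4dip, 0.069 for Ldb3, 0.46 for Adcy6, 0.10 for Dst, -0.96 for Tmsb4x and -0.59 for Gsn. Hspb1 and Uqcrfs1 had no UMI in CF-KI there, and with 0.5 UMIs put in its place were at -0.69 and -0.88, which are no bounds. In the nuclei chosen after thinning, with all their UMIs counted, log2 values were 0.97 for the ventricular and -0.25 for the sarcomere list. They were -0.12 for Myl7, -0.14 for Myl4, -0.59 for Sln, -0.10 for Pln, 0.90 for Ttn and -0.12 for Gm42418. Further values were 0.011 for Arhgap31, 0.54 for Pde4dip, -0.17 for Mgp and -0.065 for Gsn. Myh7, with 0 and 3 UMIs, was at -1.95 with 0.5 in place of 0. With at least 4 rule genes or without Nppa, Bmp10 was at 1.47, Nppa at 0.37, Myh7 at -0.42 and Ttn at 0.29. With no exclusion UMIs, Myl4 was at -0.23, Nppa at -0.088 and Ttn at 0.20. Nppa was at 0.32 in nuclei with 3 cardiomyocyte genes and at -0.0025 with all UMIs as denominator. With free RNA subtracted, Myl7 was at 0.81, Myl4 at 0.71, Nppa at 0.59, Sln at 0.74, Ttn at 0.25, Gm42418 at -0.16 and Tmsb4x at -4.01. The cause of these changes was not tested.

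In the chamber comparison 39 of 1016 features were higher. This became 16 of 387 with at most 5% mitochondrial UMIs and 73 of 168 in nuclei chosen after thinning. It became 74 of 1024 with 4 cardiomyocyte genes in comparison nuclei, 61 of 1033 with the 2% comparison and 188 of 1016 with free RNA subtracted. The 6 lower ones became 20, 16, 19 and 29 of the same features under the last 4. Of the atrial list 11 were higher at 5% and 1 lower; 2 were lower with at least 4 rule genes, without Nppa and after thinning, and 1 with no exclusion UMIs. Of the ventricular list 2 were higher under these 4 and with 4 cardiomyocyte genes. No paired analysis was possible because both libraries are replicate 1 of their group.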

Other observations

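Barcodes above the mitochondrial limit held further atrial signal. The totals were barcodes with at least 200 genes and over 30% mitochondrial UMIs. Of these, 26 of 2369 in CF-KI (1.10%, interval 0.718% to 1.60%) and 19 of 300 in the control (6.33%, 3.86% to 9.71%) met the rest of the rule. They had at least 3 of the 6 rule genes and at most 2 UMIs over the genes of other heart cells. The limit of 2 UMIs was not applied to the totals of 2369 and 300. Barcodes above the mitochondrial limit entered no comparison.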
